A study of Bos taurus with 6 samples.

Results

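The genes described here are 10 imprinted growth control genes, H19, MEG3, PEG3, PEG10, MEST, PLAGL1, DLK1, SGCE, CDKN1C and GRB10, chosen by symbol. All 10 were found, each as 1 entry among the 34733 named genes of the deposited tables, and 9 of them were high enough to be tested. RNA had been measured in 2 cell populations sorted from the endometrium of cows (Bos taurus) in the luteal phase, when the corpus luteum secretes progesterone. Side population (SP) cells pump out the DNA dye Hoechst, and main population (MP) cells keep it; both came from collagenase digests of slaughterhouse endometrium stripped of its luminal epithelium, with dead cells gated out, and the labels name no antibody gate, transgene or treatment. There were 3 libraries of each population, and the labels leave unsaid whether replicates stem from different animals; p-values therefore reflect the spread among these libraries, which may be technical.

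Imprinted genes are expressed mainly from the copy inherited from 1 parent, because a methylation mark set in the egg or the sperm differs between the parental copies. Many sit in clusters that share a control region, and many act on growth: genes active on the paternal copy tend to promote fetal and placental growth, and genes active on the maternal copy tend to restrain it. The values here sum both parental copies, so they give the level of a gene and say nothing about which copy was active. PEG3, PEG10, MEST, PLAGL1, DLK1 and SGCE are known in mammals as paternally expressed, and H19, MEG3 and CDKN1C as maternally expressed; GRB10 is maternally expressed in most mouse tissues.

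The libraries differed in ways that touch every gene. The exporters of the dye were higher in SP on average, with ABCB1 at 54.1 to 111 FPKM in SP and 3.76 to 16.8 FPKM in MP, and ABCG2 at 66.1 to 138 and 17.1 to 71.8 FPKM (FPKM, a fragment count scaled by transcript length and by library size). Of 19 endothelial markers 17 were called higher in SP, none was at 0 in every library of a population, and their summed level was 2078 to 3031 FPKM in SP and 206 to 1319 FPKM in MP. Of 22 stromal fibroblast markers 19 were called lower in SP, likewise with none at 0, and their summed level was 2616 to 3557 FPKM in SP and 5814 to 14294 FPKM in MP, although the cells are labelled as stromal in origin. VIM, an intermediate filament gene of many cell types, made up most of the SP sum (1991 to 3195 FPKM in SP and 1375 to 2195 FPKM in MP, not called), and the other 21 stromal markers summed to 362 to 626 FPKM in SP and 3619 to 12918 FPKM in MP. Markers of myeloid cells were called lower in 10 of 12 tested, those of pericytes and smooth muscle in 9 of 14, and those of mast cells in 4 of 5. Those of T and NK cells were called lower in 7 of 8 (CD8B was listed at 0 in all SP libraries). Their summed level was nevertheless 334 to 2772 FPKM in SP, highest in replicate 1, and 267 to 676 FPKM in MP. The median of the 8 tested was 0.0136, 0.118 and 0.158 FPKM in SP replicates 1, 2 and 3. In MP replicates 1, 2 and 3 it was 5.87, 14.5 and 7.79 FPKM, so most of the tested markers held little of the SP sum. Of 15 epithelial markers 1 was called, CDH3, lower in SP. Epithelial markers summed to 270 to 2214 FPKM in SP and 1297 to 5661 FPKM in MP, with overlap and a wide spread. Being below 1 FPKM in every SP library, 5 of the myeloid, 6 of the T and NK cell, 2 of the mast cell and 2 of the stromal markers and CDH3 had their direction fixed by the filter on low values. In RNA of sorted pools, fewer cells of a type and less RNA per cell cannot be told apart. The data columns of MP, but not of SP, are headed with the unexplained word micro, and whatever it marks cannot be told apart from the population. Relative to SP replicate 1, the estimated depth was 1.61 and 1.85 in SP replicates 2 and 3 and 2.35, 3.23 and 2.01 in the MP libraries, so low genes are known less well in SP. Wherever values of a population are listed below, they stand in the order of replicates 1, 2 and 3.

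Of the 9 tested genes, GRB10 and PEG10 rose in SP, H19 and PEG3 fell, and MEG3, MEST, PLAGL1, SGCE and CDKN1C did not pass the test (limma on log2(FPKM + 1), Benjamini-Hochberg adjusted p under 0.05 over 12127 tested genes). Over all tested genes 39.2% were called, 20.5% higher and 18.7% lower in SP, so 4 of 9 is close to the background share and marks nothing particular about the group. The median log2 fold change of the 9, SP minus MP, was −0.15, against 0.01 over all tested genes, and the median size regardless of direction was 0.63, against 0.68. Both directions held 1 gene known as paternally expressed and 1 known as maternally expressed: PEG10 and GRB10 were higher in SP, PEG3 and H19 lower. In these 4 genes the SP values did not overlap the MP values, which held for 54.8% of all tested genes. No member was below 1 FPKM in every library of a population among those tested, so the filter on low values fixed no direction. Without SP replicate 1 only H19 and PEG10 were called, 2 genes in place of 4.

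**Figure D1:**
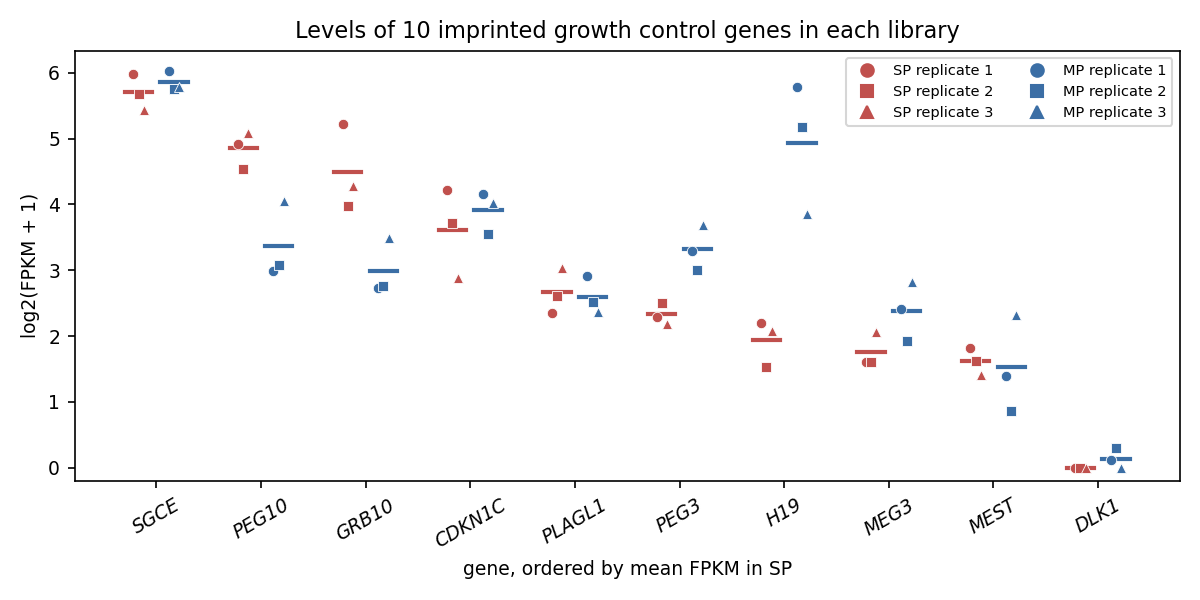
Level of each of the 10 genes in each library on the log2(FPKM + 1) scale (vertical axis), with genes ordered by their mean FPKM in SP; red symbols are SP, blue symbols MP, the shape marks the replicate number, and bars are means of 3 libraries. H19 and PEG3 stand lower in SP, PEG10 and GRB10 higher, and SGCE lies at a like height in both, while DLK1 lies at or near 0.

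FPKM is scaled by transcript length, so levels can be ranked between genes. In SP the order of mean FPKM was SGCE (51.6), PEG10 (28.2), GRB10 (23.1), CDKN1C (12.1), PLAGL1 (5.47), PEG3 (4.05), H19 (2.89), MEG3 (2.42), MEST (2.09) and DLK1 (listed at 0). Neighbours in this order overlapped in their 3 values, other than SGCE with PEG10 and MEST with DLK1. In MP the order was SGCE (56.9), H19 (34.2), CDKN1C (14.3), PEG10 (9.96), PEG3 (9.24), GRB10 (7.22), PLAGL1 (5.12), MEG3 (4.39), MEST (2.14) and DLK1 (0.105), and only MEST and DLK1 were apart from each other among neighbours. H19 thus held rank 7 in SP and rank 2 in MP.

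H19 is a long noncoding RNA known from fetal and placental tissues, whose gene shares enhancers and an imprinting control region with IGF2, the gene of a fetal growth factor. Its locus is listed at chromosome 29, 49510997 to 49513370 (build ARS-UCD1.2). H19 was measured at 3.61, 1.88 and 3.20 FPKM in the SP libraries and at 54.0, 35.2 and 13.5 FPKM in the MP libraries. Every SP value lay below every MP value, and MP replicate 3 was the lowest of its group. The mean was 11.8-fold higher in MP (34.2 ± 20.3 FPKM, SD, n = 3) than in SP (2.89 ± 0.905 FPKM, SD, n = 3). On the log2(FPKM + 1) scale H19 fell by 3.01 in SP, with a 95% interval from −4.11 to −1.90 (limma adjusted p = 0.00451), and an exact permutation test (two-sided, 3 libraries against 3) gave p = 0.1, which is the smallest possible. Only 1.76% of tested genes changed by as much or more in size.

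The rank of H19 inside each library gives the same order, and scaling between libraries enters it only through the cut at 1 FPKM. Among genes of at least 1 FPKM in the same library, H19 stood above 26.7%, 12.3% and 25.2% in the SP libraries and above 88.0%, 82.5% and 64.6% in the MP libraries. All 15 alternative fits kept the call (adjusted p from 0.00165 to 0.0210), though with a pseudocount of 5 FPKM the log2 fold change was −2.17.

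Around H19 the tested genes were lower in SP as well. Within 250000 bp of its locus 5 other genes were tested, and all 5 were called lower: TH, tyrosine hydroxylase of catecholamine synthesis (−3.04), IGF2 (−1.46), MRPL23, a mitochondrial ribosomal protein (−1.06), LSP1, a leukocyte actin-binding protein (−3.12), and CTSD, the lysosomal protease cathepsin D (−0.88; log2 fold changes, limma adjusted p from 0.000656 to 0.0260). TH was below 1 FPKM in every SP library, so the filter fixed its direction. The background share of genes called lower was 18.7%, and genes this close together are not independent. Calls were lost without MP replicate 1 for IGF2 (adjusted p = 0.0548), without SP replicates 2 or 3 or MP replicate 2 for CTSD (0.0611 to 0.0686), and without SP replicates 1 or 3 or MP replicates 1 or 2 for MRPL23 (0.0659 to 0.0873), which was also not called with FPKM rescaled to a common sum (0.0667).

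IGF2 was measured at 224, 253 and 141 FPKM in the SP libraries and at 668, 359 and 697 FPKM in the MP libraries. The ratio of IGF2 to H19 within a library was 62.2, 135 and 44.0 in SP and 12.4, 10.2 and 51.7 in MP, so the SP and MP ratios overlapped at MP replicate 3 (exact two-sided permutation p = 0.2). H19 and CDKN1C, which lie in neighbouring imprinted domains of chromosome 29, moved apart: the ratio of H19 to CDKN1C was 0.204, 0.154 and 0.504 in SP and 3.21, 3.30 and 0.882 in MP, without overlap (exact two-sided permutation p = 0.1, the smallest possible).

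PEG3, paternally expressed gene 3, encodes a zinc finger protein of the nucleus, known for effects on growth, maternal behaviour and cell survival in mice. Its locus is listed at chromosome 18, 64099191 to 64122748. PEG3 was measured at 3.91, 4.68 and 3.55 FPKM in the SP libraries and at 8.83, 7.01 and 11.9 FPKM in the MP libraries. The SP values lay close together and all below the MP values. The log2 fold change was −1.0, with a 95% interval from −1.59 to −0.41 (limma adjusted p = 0.0197), and the mean was 2.28-fold higher in MP. The call was lost without SP replicate 1 (adjusted p = 0.0610) and without SP replicate 3 (0.0675). Of the other genes of this imprinted domain, USP29, ZIM2 and ZIM3 were listed at 0 in all 6 libraries, as was the antisense gene APEG3, which is listed at the same coordinates as PEG3. Reads of APEG3 and PEG3 may not be told apart, so this 0 does not show that APEG3 was silent. ZNF470 and ZFP28, the tested genes within 250000 bp, had log2 fold changes of 0.67 and 0.46 and did not pass (limma adjusted p = 0.103 and 0.114).

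PEG10 and SGCE are neighbours that point away from each other and, in mammals studied, share an imprinted promoter region. PEG10 derives from a retrotransposon and encodes Gag-like and Pol-like proteins needed to form the mouse placenta, and SGCE encodes epsilon-sarcoglycan, a membrane protein of the dystrophin-associated complex. In the deposited coordinates SGCE (chromosome 4, 11992406 to 12063767) ends 185 bp before PEG10 (12063953 to 12076659) begins. PEG10 was measured at 29.3, 22.2 and 33.1 FPKM in the SP libraries and at 6.90, 7.42 and 15.6 FPKM in the MP libraries. Every SP value lay above every MP value, and MP replicate 3 was the highest of its group. PEG10 rose by 1.48 on the log2 scale, with a 95% interval from 0.71 to 2.26 (limma adjusted p = 0.0132), a 2.83-fold higher mean, and the call held in all 15 alternatives (adjusted p from 0.00439 to 0.0487).

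SGCE was measured at 62.0, 50.4 and 42.3 FPKM in the SP libraries and at 64.4, 52.7 and 53.8 FPKM in the MP libraries. The groups overlapped, and the log2 fold change of −0.15 had a 95% interval from −0.69 to 0.38 (limma adjusted p = 0.620), which turned to 0.07 with FPKM rescaled to a common sum. Within each library SGCE stood above 85.1% to 86.9% of the genes of at least 1 FPKM in SP and above 87.4% to 89.7% in MP.

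The ratio of PEG10 to SGCE within a library needs no scaling between libraries. It was 0.473, 0.441 and 0.782 in the SP libraries and 0.107, 0.141 and 0.289 in the MP libraries, with no overlap. On the log2 scale the ratio was higher in SP by 1.74 (exact two-sided permutation p = 0.1, the smallest possible), and by 1.44 to 2.15 when any 1 library was left out. Among the other tested genes within 250000 bp of SGCE or PEG10, the glycan acetyltransferase gene CASD1 and PPP1R9A, which encodes the actin-binding protein neurabin, did not pass (−0.32 and 0.45). COL1A2, a collagen chain of fibroblasts on the far side of CASD1, fell by 3.11.

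**Figure D2:**
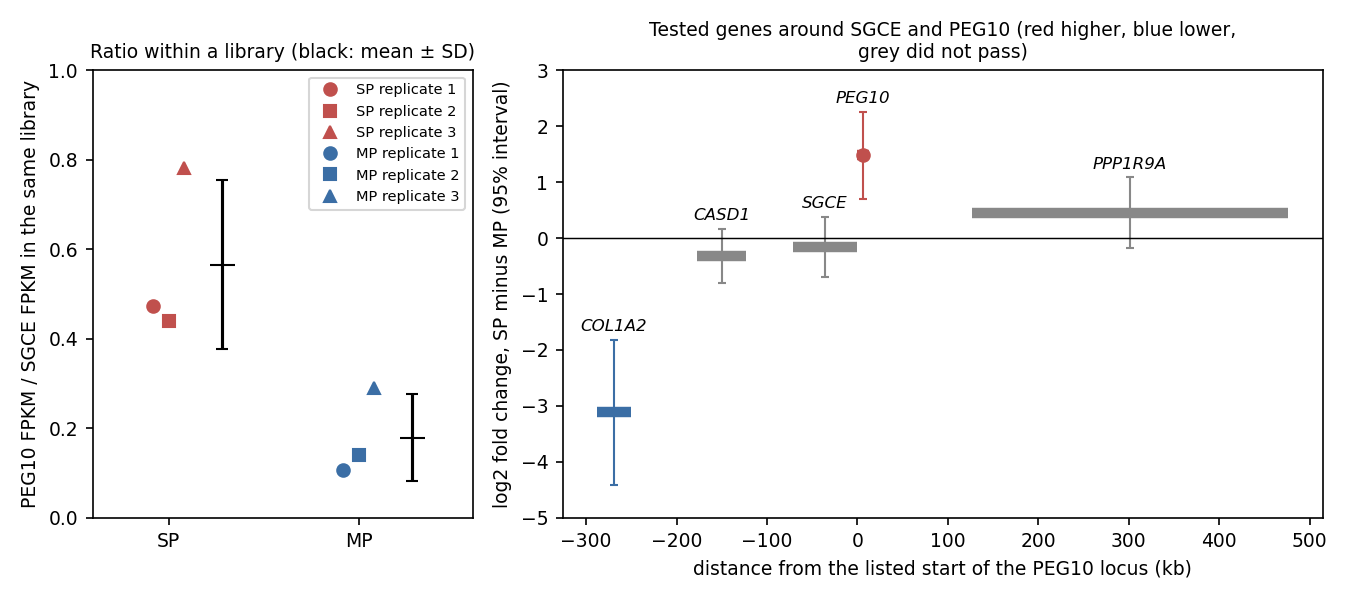
Left, FPKM of PEG10 divided by FPKM of SGCE in each library, with mean ± SD in black; right, log2 fold change SP minus MP of each tested gene around the pair, with its 95% interval, against distance in kb from the listed start of PEG10 (horizontal bars span each listed locus). The SP ratios of 0.441 to 0.782 lie above the MP ratios of 0.107 to 0.289, and PEG10 is higher in SP while the interval of SGCE beside it spans 0.

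GRB10 encodes an adaptor protein that binds the activated insulin and IGF1 receptors and dampens their signal. Its locus is listed at chromosome 4, 5105701 to 5327928. GRB10 was measured at 36.2, 14.7 and 18.5 FPKM in the SP libraries and at 5.65, 5.74 and 10.3 FPKM in the MP libraries. All SP values lay above the MP values, with SP replicate 1 far above the other SP libraries and MP replicate 3 the highest of MP. GRB10 rose by 1.50 on the log2 scale, with a 95% interval from 0.62 to 2.37 (limma adjusted p = 0.0192), a 3.20-fold higher mean. The call was lost without SP replicate 1 (adjusted p = 0.0522), MP replicate 1 (0.0603) or MP replicate 2 (0.0639). DDC, the imprinted neighbour of GRB10 in mice, was below 1 FPKM in every SP library and at 1.04 to 1.72 FPKM in MP.

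Of 9 tested relatives, receptors and partners of GRB10, 5 rose and 2 fell in SP, 77.8% called against 39.2% over all tested genes (20.5% higher and 18.7% lower). The 2 that fell, the insulin receptor substrates IRS1 and IRS2, were below 1 FPKM in every SP library, so the filter had fixed their direction; neither was called without any 1 of the SP replicates, and without any 1 of the MP replicates both were too low to test. Both lower calls were also lost with FPKM rescaled to a common sum, with quantile normalization and with no filter on low values. The number called higher was 2 without SP replicates 1 or 2 or MP replicate 1, and 3 with no filter on low values or with a filter at a mean of 5 FPKM. INSR, the insulin receptor, was measured at 44.5, 21.6 and 26.8 FPKM in the SP libraries and at 5.78, 5.32 and 11.9 FPKM in the MP libraries, and rose by 1.90 (limma adjusted p = 0.00824). As with GRB10, SP replicate 1 was the highest of SP and MP replicate 3 the highest of MP. GIGYF2, a protein that binds GRB10, rose by 1.65 (adjusted p = 0.00420). IGF1R, the receptor of IGF1, rose by 1.22 and NEDD4, a ubiquitin ligase that binds GRB10, by 1.01 (limma adjusted p = 0.0162 and 0.0217), but IGF1R was not called without SP replicates 1 or 2 or MP replicate 1 (adjusted p from 0.0515 to 0.0539), nor NEDD4 without the same libraries (0.0578 to 0.0703) or with no filter on low values (0.0504). The median of the 9 was 0.90, against 0.01 over all tested genes.

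The 4 called genes were set beside cell type markers library by library, and their orders within a population matched in part. The 19 endothelial markers had a median FPKM of 151, 82.1 and 93.2 in the SP libraries and of 7.63, 17.8 and 61.9 in the MP libraries. PEG10 and GRB10 were highest among the MP libraries in replicate 3, where the endothelial median was also highest, and GRB10 was highest among the SP libraries in replicate 1, as the endothelial median was. PEG10 was highest among the SP libraries in replicate 3, where the endothelial median was not. The median stromal marker stood at 5.91, 7.62 and 15.8 FPKM in SP and at 180, 67.4 and 68.7 FPKM in MP, and H19 was likewise highest in MP replicate 1, whereas PEG3 was highest in MP replicate 3. In SP the stromal median was lowest in replicate 1 and highest in replicate 3, whereas H19 was highest in replicate 1 and PEG3 was lowest in replicate 3. The part of endothelial, stromal, epithelial, pericyte, smooth muscle and leukocyte RNA in these differences was not tested. Without MP replicate 3, the library nearest to SP, the log2 fold changes of H19, PEG3, PEG10 and GRB10 were −3.55, −0.82, 1.82 and 1.75, and all 4 were called.

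**Figure D3:**
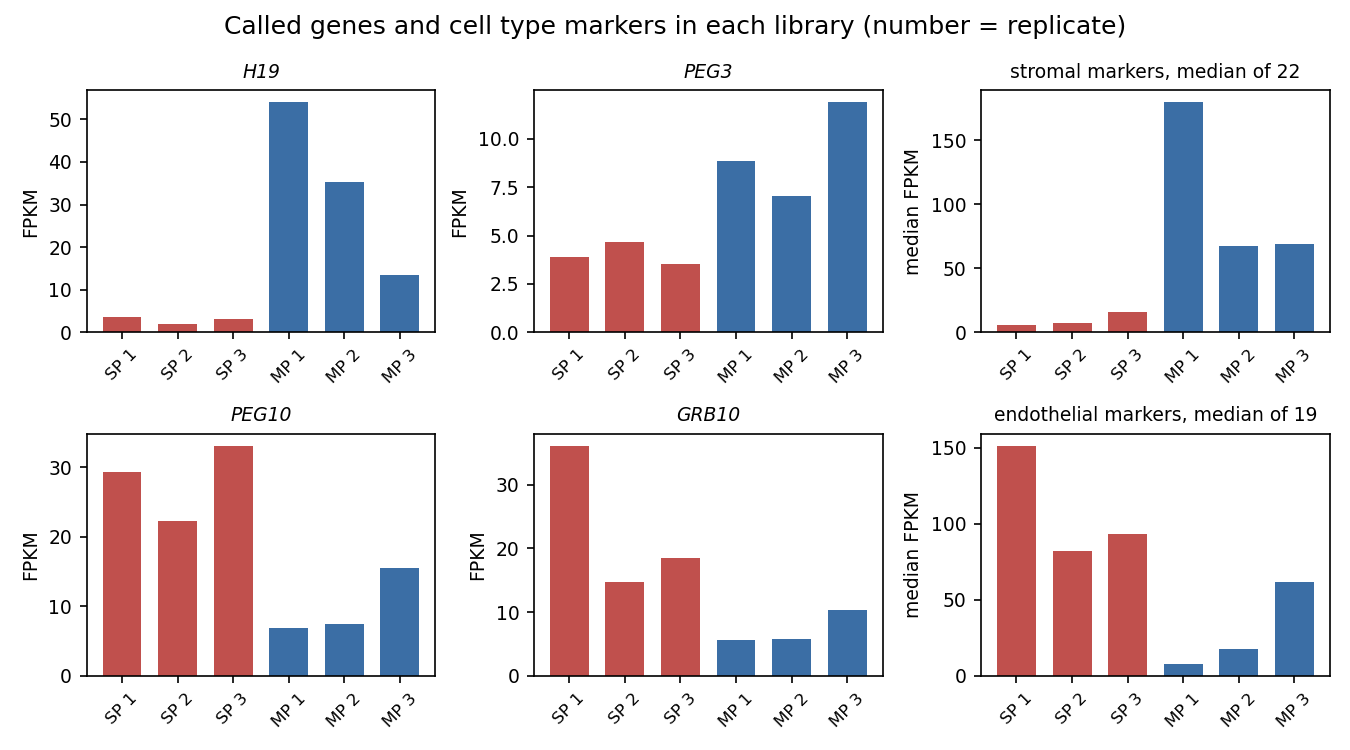
FPKM of the called genes H19, PEG3, PEG10 and GRB10 in each library (bars from 0; red SP, blue MP), beside the median FPKM of 22 stromal and 19 endothelial markers. In MP replicate 3, H19 is the lowest of MP (13.5), PEG10 and GRB10 are the highest of MP (15.6 and 10.3), and so is the endothelial median (61.9).

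CDKN1C encodes an inhibitor of cyclin-dependent kinases that stops cells from dividing, and in human endometrial stroma it is known to increase as the cells decidualize. It lies at chromosome 29, 48728467 to 48730923, and was measured at 17.7, 12.2 and 6.35 FPKM in the SP libraries and at 16.8, 10.7 and 15.3 FPKM in the MP libraries. The groups overlapped, with SP replicate 3 the lowest library, and the log2 fold change of −0.30 had a 95% interval from −1.15 to 0.55 (limma adjusted p = 0.535). Without SP replicate 3 it was 0.06. None of the 5 tested relatives among CDK inhibitors was called by limma, against 39.2% of all tested genes, and none had an unadjusted p under 0.05. Over the 15 alternatives at most 1 was called higher in SP and none lower. CDKN1A, a target of p53 signalling, was the most abundant at 473 to 1505 FPKM in SP and 347 to 587 FPKM in MP.

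The genes beside CDKN1C did not move as 1 domain. PHLDA2, a maternally expressed restrainer of placental growth, stood at 5.26, 1.36 and 4.58 FPKM in SP and at 32.7, 7.49 and 7.55 FPKM in MP. These groups did not overlap, but the log2 fold change of −1.63 did not pass (limma adjusted p = 0.0645; called in 1 of 15 alternatives, over a range from 0.0228 to 0.178). NAP1L4, a histone chaperone, fell by 0.78 (adjusted p = 0.0376), a call lost without SP replicates 1 or 3 or MP replicates 2 or 3 (0.0783 to 0.117), with FPKM rescaled to a common sum (0.119) or after removal of genes of ribosomal proteins and of the mitochondrial genome (0.0693), and with no filter on low values (0.0510). CARS, the cysteine tRNA synthetase, rose by 0.98 (adjusted p = 0.0270), a call lost without SP replicates 2 or 3 or MP replicates 1 or 2 (0.0534 to 0.0883). LOC510798 rose by 2.31 (limma adjusted p = 0.0239). That call was lost without SP replicates 1 or 2 or MP replicate 2 (0.0568 to 0.0710) and with no filter on low values (0.0629). The potassium channel gene KCNQ1, the transporter gene SLC22A18 and OSBPL5 did not pass (0.64, 0.05 and −0.56).

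MEG3 and DLK1 belong to 1 imprinted domain of chromosome 21, MEG3 being a maternally expressed long noncoding RNA and DLK1 a paternally expressed membrane protein related to Notch ligands, known as a brake on fat cell differentiation. MEG3 (65727803 to 65746033) was measured at 2.05, 2.03 and 3.18 FPKM in the SP libraries and at 4.31, 2.79 and 6.07 FPKM in the MP libraries. The SP and MP values overlapped, since SP replicate 3 lay above MP replicate 2. Its log2 fold change of −0.63 had a 95% interval from −1.30 to 0.05 (limma adjusted p = 0.121), and it was called in none of 14 alternatives (adjusted p from 0.0715 to 0.291).

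DLK1 (65626345 to 65634498) was listed at 0 in the 3 SP libraries and in MP replicate 3, and at 0.0852 and 0.229 FPKM in MP replicates 1 and 2, and was too low to test. The files give no counts, so a limit on the level that a 0 allows cannot be set. A 0 can also be a failed estimate. COX1, a mitochondrial gene every cell uses, was listed at 0 in all MP libraries but at 9627 to 17922 FPKM in SP. This difference follows the populations, as does the word micro in the column headings, and its cause was not tested. In the same domain RTL1 was listed at 0 throughout, MEG8 lay between 0.0963 and 0.266 FPKM, MEG9 reached 1.35 FPKM in SP replicate 3 alone, and DIO3, a thyroid hormone deiodinase, stood at 0.788, 0.148 and 0.0432 FPKM in SP and at 2.86, 0.792 and 1.38 FPKM in MP. RTL1 and MEG8 are listed at the same locus, so their reads may not be told apart. Within 250000 bp of DLK1, WDR25 fell by 1.01 (limma adjusted p = 0.0475), a call kept in 4 of 14 alternatives. BEGAIN stood at 3.44 to 20.3 FPKM in SP and 0.856 to 2.77 FPKM in MP, without overlap. It did not pass (1.61; limma adjusted p = 0.0657), though it did in 2 of 15 alternatives.

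MEST, which encodes a membrane protein with an alpha/beta hydrolase fold, was the lowest of the tested members. It lies at chromosome 4, 94245516 to 94263783, and was measured at 2.53, 2.09 and 1.65 FPKM in the SP libraries and at 1.62, 0.817 and 3.98 FPKM in the MP libraries. The MP libraries spread to both sides of the SP libraries, and the log2 fold change of 0.10 had a 95% interval from −0.76 to 0.95 (limma adjusted p = 0.847). COPG2, a coat protein gene, has a listed span 220 bp from the listed end of MEST, which MARK4 and LOC112446420 share. COPG2 had values of 4.07 to 4.70 FPKM in SP and 6.10 to 8.50 FPKM in MP, without overlap, and did not pass (−0.61, limma adjusted p = 0.0606). CEP41, the other tested gene within 250000 bp, did not pass either (−0.27; limma adjusted p = 0.326).

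PLAGL1 encodes a zinc finger transcription factor that restrains cell division and is known to bind regulatory regions of other imprinted genes. It is listed at chromosome 9, 81316648 to 81459984, a span also given to ZC2HC1B, so the start of PLAGL1 itself is not known from it. PLAGL1 was measured at 4.09, 5.11 and 7.21 FPKM in the SP libraries and at 6.49, 4.71 and 4.16 FPKM in the MP libraries. The groups covered nearly the same range, with a log2 fold change of 0.07 and a 95% interval from −0.56 to 0.70 (limma adjusted p = 0.851). Of its 5 tested neighbours 3 rose, 1 fell and STX11 did not pass. LTV1, a ribosome assembly factor, has a listed locus that ends 566 bp before this shared span. LTV1 stood at 38.3, 26.0 and 33.9 FPKM in SP and 10.9, 10.1 and 15.9 FPKM in MP and rose by 1.35 (limma adjusted p = 0.00803). PHACTR2 also rose, its direction fixed by the filter, as did UTRN, described below. SF3B5, a splicing factor subunit, fell by 0.98 (limma adjusted p = 0.0344), a call kept in 7 of 15 alternatives. Over all members, 27 tested neighbours within 250000 bp included 5 called higher and 10 called lower in SP, of which the filter had fixed the direction of 3, with a median log2 fold change of −0.32; 55.6% were called against 39.2% over all tested genes, and neighbours close together are not independent.

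Other imprinted genes were read from a list of 63, of which 57 symbols were found and 31 tested. In SP 5 rose and 7 fell, the direction of 2 being fixed by the filter, 38.7% of those tested against 39.2% over all genes, and their median log2 fold change was 0.05. NNAT, a small membrane proteolipid of neuroendocrine cells, stood at 1.36, 1.50 and 4.11 FPKM in SP and 84.1, 35.9 and 135 FPKM in MP and fell by 4.60 (limma adjusted p = 0.00167). NDN, a growth suppressor of the Prader-Willi region, stood at 0.899, 1.35 and 0.955 FPKM in SP and 16.7, 11.0 and 6.33 FPKM in MP and fell by 2.49 (adjusted p = 0.00285). Like H19, NDN was lowest among MP libraries in replicate 3, while NNAT was highest there.

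WT1, a transcription factor of urogenital stroma, was below 1 FPKM in every SP library and at 6.91 to 24.0 FPKM in MP, so the filter fixed its direction. ATP10A, a phospholipid flippase, stood at 40.8, 11.7 and 11.7 FPKM in SP and 1.13, 1.22 and 2.91 FPKM in MP and rose by 2.83 (limma adjusted p = 0.00614). The most abundant that did not pass were GNAS, the stimulatory G protein alpha subunit (0.41; adjusted p = 0.207), and the tetraspanin CD81 (−0.74; adjusted p = 0.0599), and 9 of the list were listed at 0 in all libraries. GNAS passed with FPKM rescaled to a common sum (adjusted p = 0.0435), and CD81 with quantile normalization (0.0111) and after removal of genes of ribosomal proteins and of the mitochondrial genome (0.0402). The number called higher was 3 without SP replicates 1 or 2 or MP replicates 1 or 2, and the number called lower was 4 without SP replicates 1 or 3, 3 without MP replicate 1, 2 without MP replicate 2 and 4 with FPKM rescaled to a common sum.

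**Figure D4:**
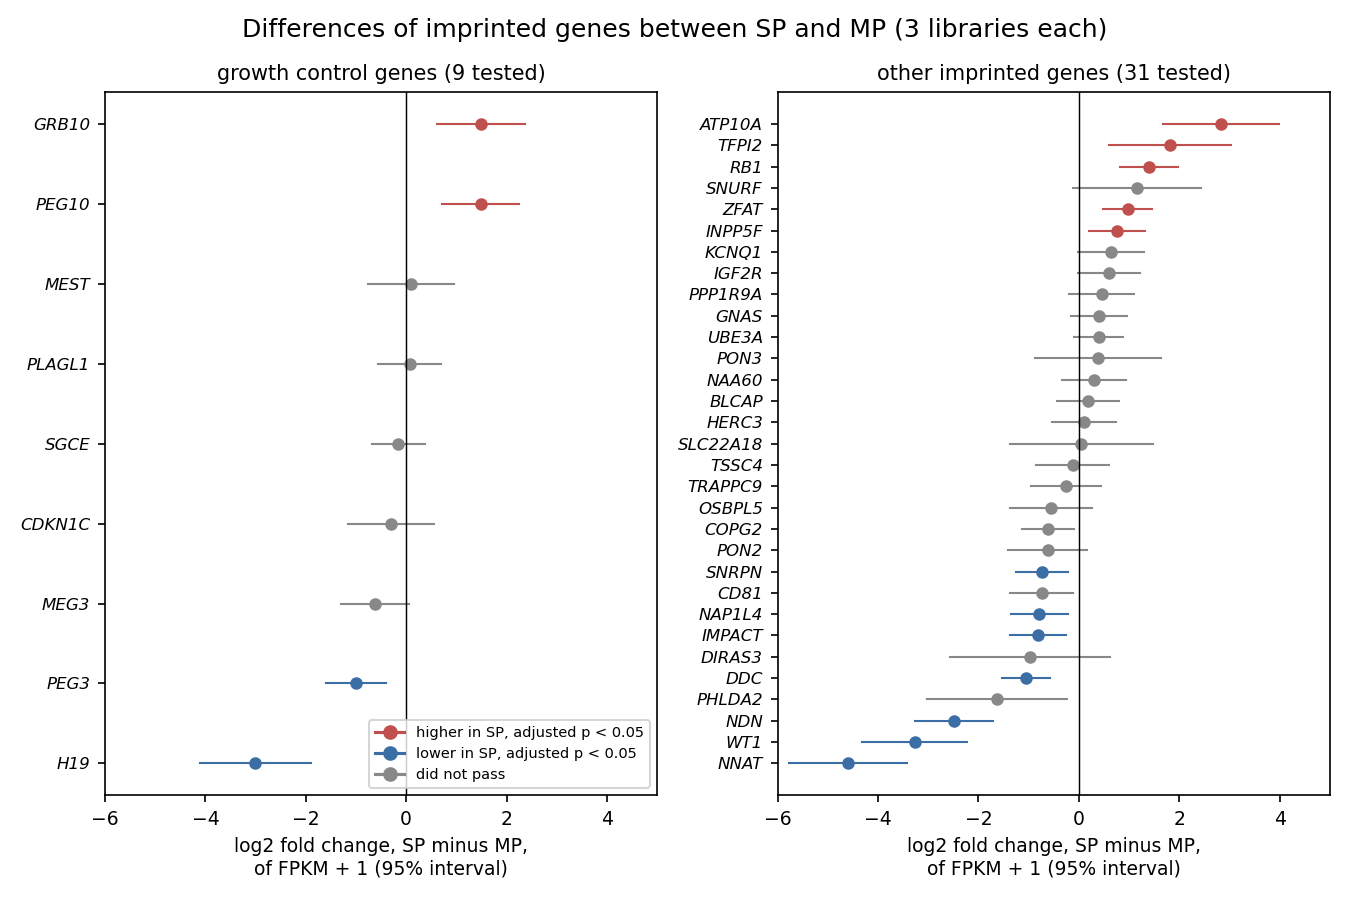
Log2 fold change SP minus MP of FPKM + 1 with its 95% interval for the 9 tested growth control genes (left) and 31 other tested imprinted genes (right); red and blue mark genes called higher and lower in SP, grey those that did not pass. Both panels hold genes on each side of 0, from −3.01 for H19 to 1.50 for GRB10 on the left and from −4.60 for NNAT to 2.83 for ATP10A on the right.

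Of 26 factors found that keep or read imprints, 15 were high enough to be tested, and CTCFL, DPPA3, NLRP2 and NLRP5 were listed at 0 in all libraries. Of the 15 tested 5 rose and 1 fell in SP, 40% against 39.2% over all genes. The number called higher was 3 without SP replicates 1 or 3 or MP replicate 2, with no filter on low values or with a filter at a mean of 5 FPKM. The number called lower was 0 without any 1 of the SP replicates or with FPKM rescaled to a common sum, and 2 without MP replicate 3. ARID4A and ARID4B, chromatin proteins linked to the Prader-Willi imprint in mice, rose by 2.18 and 2.1, and SMCHD1, a chromatin protein that silences the inactive X and some imprinted clusters, rose by 1.88 (limma adjusted p = 0.00241, 0.00522 and 0.00311). EHMT2, a histone H3 lysine 9 methyltransferase, fell by 0.85 (adjusted p = 0.0163), a call lost without SP replicates 1, 2 or 3 (0.0501 to 0.0560) and with FPKM rescaled to a common sum (0.0708). The DNA methyltransferase DNMT1, the imprint readers ZFP57 and ZNF445 and their corepressor TRIM28 did not pass, with log2 fold changes of 0.17, 0.40, 0.22 and −0.03, nor did CTCF, which binds the control region of H19 (0.41; adjusted p from 0.189 to 0.930 over the 5).

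Partners of SGCE in the dystrophin-associated complex went both ways. Of 9 tested 2 rose and 3 fell, 55.6% called against 39.2% over all tested genes. SGCB, beta-sarcoglycan, stood at 1.09, 2.28 and 1.88 FPKM in SP and 18.3, 10.7 and 6.46 FPKM in MP and fell by 2.13 (limma adjusted p = 0.00595), and SSPN, sarcospan, fell by 1.94 (0.00425). UTRN, utrophin, a relative of dystrophin known in endothelium, stood at 26.9, 20.5 and 20.6 FPKM in SP and 4.44, 6.03 and 8.01 FPKM in MP and rose by 1.75 (0.00384). The syntrophin SNTB2 rose by 1.51 (limma adjusted p = 0.0151), a call lost without MP replicates 1 or 2 (0.0501 and 0.0530).

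Notch receptors, the family that DLK1 touches, split by member. Of 5 tested in this list 4 were called, 80% against 39.2% over all tested genes. NOTCH1, NOTCH4 and EGFL7, a secreted protein of endothelium, rose by 2.00, 2.08 and 1.97, and NOTCH2 fell by 2.17 (limma adjusted p = 0.00686, 0.0106, 0.0216 and 0.00818). NOTCH2 stood at 1.10, 2.08 and 1.87 FPKM in SP and 19.4, 12.2 and 5.29 FPKM in MP. The call of EGFL7 was lost without SP replicate 1, MP replicate 1 or MP replicate 2 (adjusted p from 0.0641 to 0.0708) and with no filter on low values (0.0551).

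The genes whose pattern over the 6 libraries was most like each called member were found by the distance between log2(FPKM + 1) values after each gene's own mean was subtracted. For H19 they were FLRT2, ANTXR2 and LYZ, at distances of 0.490, 0.537 and 0.600, and for PEG3 they were MRPL27, EDF1 and POLE4 (0.266, 0.317 and 0.319). For PEG10 they were NOS1AP, UNC119B and OTUD4 (0.244, 0.258 and 0.310), and for GRB10 they were ITPRIP, PRKCE and KCNK5 (0.196, 0.263 and 0.283). LYZ, a myeloid marker, was below 1 FPKM in every SP library and NOS1AP in every MP library, so the filter fixed their direction. Over 6 libraries in 2 groups such closeness is a description only.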

How the data were processed

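RNA of 3 SP and 3 MP libraries was analysed. The deposited values are FPKM for every gene of a library, per the file headers; no scaling across libraries is stated. The submitters' processing notes name cutadapt 2.5, HISAT2 2.1.0 and build ARS-UCD1.2. What computed FPKM, on which annotation and whether by strand, is not given in the sources used here. Groups and replicate numbers came from sample titles. The 1 row without a gene name (0.18% to 1.91% of a library's sum) was left out, and 1690 entries repeating a symbol were kept separately.

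The test was limma 3.58.1 (R 4.3.3; eBayes with trend, two-sided) on log2(FPKM + 1) over the 12127 genes of at least 1 FPKM in at least 3 libraries; p-values were adjusted by Benjamini-Hochberg, and a gene rose, fell or was called at an adjusted p under 0.05. Fold changes on this scale understate those of low genes. The fit was tested on simulated data. FPKM depends on all other transcripts of a library: sums ranged from 647501 to 963629. With FPKM rescaled to a common sum the median of all genes moved from 0.01 to 0.20, and 68.1% of calls were higher in SP against 52.3%. Relative depth came from the most common ratio of low values between libraries. Members and lists were chosen with earlier results of these data known. Named genes were the members, up to 4 called genes per list by smallest p, the 2 most abundant uncalled imprinted genes, tested genes within 250000 bp of a member and the 3 nearest patterns; cell type markers, dye exporters, COX1, uncalled imprint factors, CDKN1A, IRS1, IRS2, DIO3, MEG8, MEG9 and genes listed at 0 were added after their values were seen. Coordinates are those of the files, 1-based, and cover the whole locus, introns included; chromosome numbers were taken from the RefSeq gene table of assembly ARS-UCD2.0 by symbol. Alternatives were pseudocounts, filters, scalings, a variance model, a replicate block and each library left out.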

Additional observations from a re-analysis of the deposited data

How the results depend on the processing

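H19 and PEG10 kept their direction and call in all 15 alternatives. With 1 library left out, the log2 fold change of PEG3 ranged from −1.16 to −0.82 and that of GRB10 from 1.13 to 1.75, and their calls were lost without the libraries named above. MEST ranged from −0.23 to 0.49, PLAGL1 from −0.12 to 0.23 and CDKN1C from −0.61 to 0.064 in these fits, each changing sign without passing; SGCE was at 0.067 with FPKM rescaled to a common sum. The sign of SLC22A18 changed with a pseudocount of 5 FPKM (−0.065) and with 1 library left out (−0.66 to 0.66). In the same fits the number of members called ranged from 2 to 4, of other imprinted genes called higher from 3 to 5 and lower from 2 to 6, the latter being 4 with all libraries and FPKM rescaled to a common sum. Over all genes the calls ranged from 2421 to 4455 (1056 to 2574 higher, 1126 to 1881 lower) when 1 library was left out. The cause of these shifts was not tested.

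With the replicate number as a replicate block the adjusted p was 0.00897 for H19, 0.0342 for PEG3, 0.0130 for PEG10 and 0.0259 for GRB10, 4793 genes were called in place of 4759, and no call of a member changed. Deviations of same-numbered libraries correlated at 0.105, 0.533 and −0.085 over genes, and SP replicates 1 and 3 correlated best with another number, so the numbers were not taken as pairs. Depth, lower in SP, limits DLK1 and other genes near 0.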

Other observations

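Relatives of PEG10 that descend from the same kind of retrotransposon moved both ways: of 4 tested entries 1 rose and 2 fell, 75% called against 39.2% over all tested genes. RTL5 was measured at 30.8, 28.1 and 18.3 FPKM in the SP libraries and at 8.0, 5.19 and 11.3 FPKM in the MP libraries, and rose by 1.57 on the log2 scale (limma adjusted p = 0.00999). RTL8C, listed as a pair of entries on chromosome X whose reads may not be told apart, fell in both, by 1.28 and 1.06 (limma adjusted p = 0.00577 and 0.0124). Its first entry was at 18.2, 18.2 and 17 FPKM in SP and at 47.7, 50.8 and 36.4 FPKM in MP, without overlap. Endothelial markers were higher in SP in 17 of 19, as given above, and their part was not tested.

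Among 7 proteins with the hydrolase fold of MEST, 1 rose and 3 fell in SP, 57.1% called against 39.2% over all tested genes. EPHX1, a microsomal epoxide hydrolase of xenobiotic metabolism, fell by 2.25 on the log2 scale (adjusted p by limma 0.00731) and was called in all 15 alternatives, whereas ABHD2, higher by 1.49, was called in 10. ABHD14B and EPHX2, the others that fell, were called in 6 of 15 each.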
